A study of Mus musculus with 5 samples.

Results

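Binding of NKX2-1 was examined here at 6470 intergenic regions, places outside every protein-coding gene at which 4 separate antibodies against NKX2-1 each gave a peak. Chromatin immunoprecipitation followed by sequencing (ChIP-seq) was performed on whole lungs of Wildtype mice at postnatal day 10, with 1 library for each of the antibodies Abcam133737, Millipore07-601, Abcam76013 and Abcam133638, beside 1 input library of sheared chromatin without immunoprecipitation. Whole lung mixes epithelial, endothelial, mesenchymal and immune cells, the labels give no number of animals, and their protocol pools chromatin after sonication. The peaks of the 4 lists were merged wherever they overlapped by at least 1 bp, which gave 68919 regions, and 31606 of these held a peak of every antibody and are called shared regions below. The position of a shared region was its summit, the base of highest pileup in its tallest peak. The intergenic regions are the 6470 shared regions (20.5%, exact 95% interval 20.0 to 20.9) whose summit lay more than 1 kb and at most 50 kb from the nearest end of a protein-coding gene. Of the other shared regions, 7103 lay within 1 kb of a gene end, 14901 further inside genes and 3132 remote, over 50 kb from any gene. All intervals for shares are Clopper-Pearson intervals over regions, genes or sequence windows and cover counting error only.

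The regions were selected by the peak calls, pileup and distance to genes, so that a peak with all 4 antibodies is no finding, and with 1 library per antibody no value has a replicate error and no test was made between antibodies or positions. With peaks limited to a fold of at least 5, the count of 6470 became 3666. Among all 14616 merged regions in the same window of distance, 44.3% were called with every antibody, against 50.0% at gene ends, 44.9% inside genes and 45.1% at remote positions. The filtered depth of the 4 libraries was 43031331 to 46547989 tags, against 10653749 for the input. The label of the regions as intergenic rests on coding genes alone. By the RefSeq annotation, 1358 of the 6470 (21%) lay inside a non-coding gene or pseudogene, and 1232 (19%) inside a long non-coding RNA gene. The regions just inside the lower limit lay 1001 bp from Wnt7b and 1006 bp from Ube3b, with mean folds over the 4 libraries of 11.7 and 9.06, and those just outside it lay 999 bp from 1700016H13Rik and 994 bp from 4930591A17Rik, with 18.1 and 3.16. At the upper limit, Abcd3 at 49968 bp (7.91) and Gpc5 at 49919 bp (5.36) were just inside, and Agps at 50096 bp (36.2) and Setd4 at 50100 bp (9.04) just outside.

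NKX2-1 is a homeodomain transcription factor that marks the lung epithelium from its first budding and is also made in thyroid and parts of the forebrain. In the alveoli it is present both in alveolar type 1 (AT1) cells, the flat cells of gas exchange, and in alveolar type 2 (AT2) cells, which make surfactant. It binds DNA at a core that reads CAAGTG, or CACTTG on the opposite strand, and factors of this kind bind enhancers away from genes as well as promoters. The series title places these data in work on how the factor controls AT1 cell development and maintenance.

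Sequence was at hand for the few intergenic regions whose summit fell into a promoter window, defined as 250 bases before to 50 after the start of a RefSeq gene (GRCm38.p6, the assembly that mm10 names). Summits of 140 intergenic regions (2.16%) fell into 150 such windows, all of them of non-coding genes, 144 in number. The windows below are those of the 2 strongest of these regions, Gm30338 and Gm32002, of Gm52238 and of Gm40572. The windows of Gm30338 and Gm32002 hold no CAAGTG. That of Gm52238 holds 2, and in that of Gm40572 a match lies next to the summit. Each of these regions extends beyond its window, and only the window was searched. The windows without CAAGTG therefore do not show that their regions lack it. These windows were chosen after their values were seen. Each is given 5′ to 3′ on the strand of the gene, with CAAGTG or CACTTG in capitals.

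Gm30338: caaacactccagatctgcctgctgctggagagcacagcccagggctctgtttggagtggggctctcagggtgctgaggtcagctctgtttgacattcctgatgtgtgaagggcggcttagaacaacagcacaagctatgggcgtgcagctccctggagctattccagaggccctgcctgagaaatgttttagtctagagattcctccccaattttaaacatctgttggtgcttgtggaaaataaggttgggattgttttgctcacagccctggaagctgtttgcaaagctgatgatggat
Gm32002: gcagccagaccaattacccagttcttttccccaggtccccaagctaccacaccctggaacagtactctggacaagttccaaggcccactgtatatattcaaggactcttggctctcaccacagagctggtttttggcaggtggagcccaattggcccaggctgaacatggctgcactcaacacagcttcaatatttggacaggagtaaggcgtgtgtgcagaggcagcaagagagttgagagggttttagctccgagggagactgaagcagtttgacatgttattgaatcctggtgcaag
Gm52238: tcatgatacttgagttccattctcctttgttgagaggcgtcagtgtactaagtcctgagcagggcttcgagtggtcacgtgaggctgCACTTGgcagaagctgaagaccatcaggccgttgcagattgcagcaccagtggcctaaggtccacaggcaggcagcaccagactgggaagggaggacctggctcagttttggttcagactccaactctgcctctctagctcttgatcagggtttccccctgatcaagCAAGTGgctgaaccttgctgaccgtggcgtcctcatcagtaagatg
Gm40572: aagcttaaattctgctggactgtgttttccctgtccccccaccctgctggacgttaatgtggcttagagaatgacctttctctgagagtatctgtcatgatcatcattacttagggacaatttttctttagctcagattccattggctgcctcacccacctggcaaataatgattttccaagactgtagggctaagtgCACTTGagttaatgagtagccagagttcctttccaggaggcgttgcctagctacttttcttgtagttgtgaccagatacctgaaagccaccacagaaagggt

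The Gm30338 window (plus strand, chr11:121794680-121794979) belongs to a long non-coding RNA gene, and its region, 35.5 kb from Ptchd3, had folds of 31.3 with Abcam133737, 42.5 with Millipore07-601, 30.9 with Abcam76013 and 41.4 with Abcam133638. Fold is the authors' ratio of the pileup at the summit to the local background. The Gm32002 window (plus strand, chr5:74161322-74161621) lay 33.8 kb from Rasl11b and had folds of 30.1, 39.8, 30.4 and 36.4 in the same order of antibodies. Both exceeded the Gm52238 window (plus strand, chr16:31494171-31494470), where the folds were 20.2, 27.7, 20.7 and 26.7. At Gm40572 (minus strand, chr12:108710950-108711249, 8.73 kb from Degs2, which encodes a sphingolipid desaturase and hydroxylase), the centre of the match lay 8.5 bases from the summit and the folds were 12.2, 17.5, 11.5 and 17.4. All 4 regions were above the upper quartile of the intergenic regions, and as a choice of 4 they show no relation between the letters and the fold.

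Across the 150 windows, CAAGTG on either strand was present in 36 (24.0%, interval 17.4 to 31.6). The windows came from 140 regions, so that some overlap and the intervals treat them as independent. The share was 13.6% in all 32817 promoter windows, 10.8% in the 4219 windows that held the summit of a shared region at a gene end and 14.4% in the other 11173 windows of non-coding genes. The longer form CACTTGA, every match of which also counts as a CAAGTG match on the opposite strand, was present in 14 (9.33%, interval 5.20 to 15.2), against 3.06% in all windows, 2.23% at gene ends and 3.20% in other non-coding windows. Within 50 bp of the summit the intergenic windows held 1.49 CAAGTG matches per kb (21 matches), and beyond 50 bp 0.667 per kb (20 matches). Windows of gene ends held 0.411 and 0.383 per kb, so that matches were about as frequent near the summit there as away from it.

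Other motifs were searched on both strands in the same windows, as letters and not as sites. TGTTTAC, a forkhead core, was in 8.67% of the intergenic windows, against 3.65% of all windows, 2.47% of gene-end windows and 4.85% of other non-coding windows. The other shares are given in the same order. GGAATG, the core of TEAD factors, which act with YAP, was in 24.7% against 14.7%, 11% and 16.7%. TTGCNNAA, a C/EBP form, was in 15.3% against 10.8%, 7.77% and 12.0%, and TGANTCA, the AP-1 form, in 8% against 7.81%, 3.93% and 9.44%. AGATAA, which GATA factors read, was in 4.67% against 11.2%, 4.31% and 14.4%. GGAAGT, an ETS form, was in 23.3% against 23.8%, 34.3% and 21.7%. The interval for TGTTTAC (13 windows, 4.7% to 14.4%) contained the share of other non-coding windows. That for TTGCNNAA (23 windows, 9.98% to 22.1%) contained the shares of all windows and of other non-coding windows. The same held for TGANTCA and GGAAGT. The interval for GGAATG lay above each of its comparison shares. That for AGATAA lay below the shares of all windows and of other non-coding windows. The NFI palindrome was in 0 of 150 windows, with an interval of 0 to 2.43%, and in 0.0366% of all windows. Base composition differed between these sets, with a median GC of 54.0% in the intergenic windows, 61.7% in gene-end windows and 48.3% in other non-coding windows, and its part in the motif shares was not tested.

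The 10 strongest intergenic regions lay nearest to Mycbp, Sftpb, Kcnj15, Cbr2, Scd2, Sertad2, Scd1, Snx5, Krr1 and Bcl2a1b, genes of varied function. For the ranking, the fold was turned into a percentile within its own list, and the 4 percentiles of a region were averaged. The highest lay 11.1 kb from the start of Mycbp, which encodes a partner of the MYC protein (mm10, chromosome 4, 123893656 to 123894275), with folds of 42.2 with Abcam133737, 54.1 with Millipore07-601, 46.3 with Abcam76013 and 50.2 with Abcam133638. Next came a region 27.4 kb before Sftpb, the surfactant protein B gene of AT2 cells (chromosome 6, 72276913 to 72277495), at 41.6, 55.4, 43.4 and 48.3. The gene on its other side, Atoh8, was 41.4 kb away. A region 22.5 kb before Kcnj15, which encodes an inwardly rectifying potassium channel (chromosome 16, 95234778 to 95235509), had 37.8, 52.2, 40.3 and 45.9. All 4 libraries placed each of these far above the median intergenic region, and Millipore07-601 gave the highest fold at each.

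The stearoyl-CoA desaturase genes Scd1 and Scd2 on chromosome 19, which make monounsaturated fatty acids, each had a region among the 10 strongest. That of Scd2 lay 7.42 kb away (44286092 to 44286658; folds 37.3, 53.9, 35.9 and 46.8), and that of Scd1 14.6 kb away (44421926 to 44422836; 36.2, 50.3, 36.5 and 45.0). Cbr2, a carbonyl reductase abundant in mouse lung, had a region of 1187 bp at 12.5 kb from its start (chromosome 11, 120743856 to 120745042), with 37.1, 53.7, 39.8 and 44.8. The remaining regions of the 10 lay near Sertad2, a transcriptional co-regulator gene, Snx5, which encodes a sorting nexin, Krr1, which acts in ribosome assembly, and Bcl2a1b, a survival gene of the BCL2 family, with mean folds of 40.8 to 42.6. Bcl2a1b belongs to a family of near-identical genes, and how uniquely reads map at this region was not examined here.

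**Figure D1:**
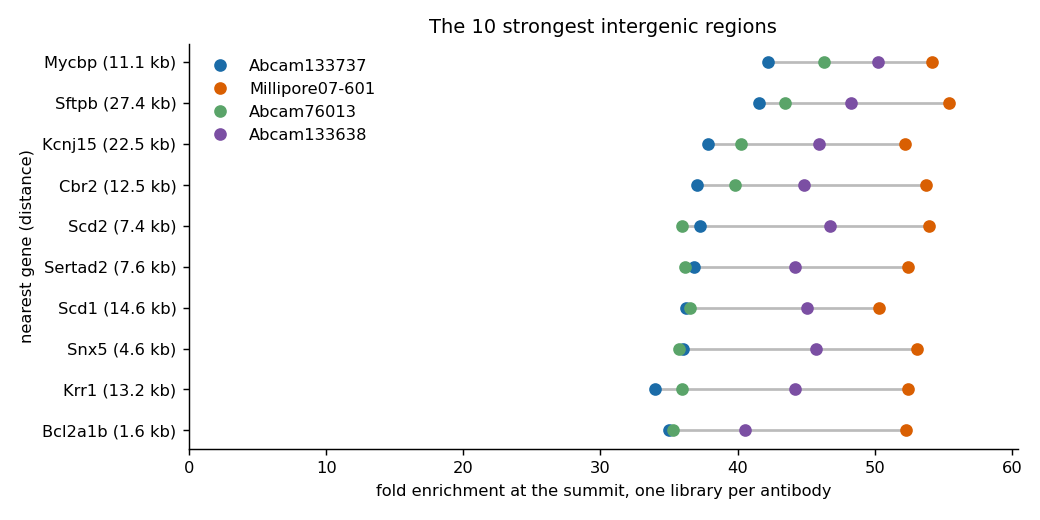
Fold enrichment (horizontal axis, ratio over local background) at the 10 strongest intergenic regions, with 1 point per antibody library and a grey line from the lowest to the highest; rows give the nearest gene and its distance. At every region Millipore07-601 lies to the right, between 50.3 and 55.4, and Abcam133737 or Abcam76013 to the left.

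Over all 6470 intergenic regions the median fold was 5.97 with Abcam133737, 8.67 with Millipore07-601, 6.09 with Abcam76013 and 8.19 with Abcam133638. The mean of the 4 had a median of 7.20, with quartiles of 5.55 and 10.3 and a range of 1.83 to 48.2. Shared regions at gene ends had a median of 6.81, those inside genes 7.28 and remote ones 7.46. Intergenic regions had a median width of 389 bp, narrower than the 478 bp at gene ends and close to the 396 bp inside genes. Of the strongest 10.0% of shared regions, 702 were intergenic by this rule, which is 10.9% of the intergenic regions (interval 10.1 to 11.6), against 5.03% of those at gene ends, 11.5% inside genes and 12.2% of remote ones. By the mean of the 4 libraries and by width they were thus placed with regions inside genes, and away from those at gene ends. In Abcam133638 alone the median fold was higher at gene ends, 8.26 against 8.19 at intergenic regions.

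The 4 antibodies ranked the intergenic regions alike. Spearman's rho of the fold between antibodies was 0.83 to 0.86 over the 6 pairs (n = 6470 regions, which share the input and are not independent), against 0.79 to 0.82 at gene ends. The summits of a pair of antibodies were a median of 20 to 22 bp apart, and in 94.3% to 95.7% of the intergenic regions they were at most 100 bp apart. The same measures at gene ends were 23 to 28 bp and 88.3% to 90.8%. Regions inside genes (rho 0.85 to 0.87, 19 to 22 bp) and remote regions (0.86 to 0.90, 19 to 22 bp) were as close between antibodies as the intergenic ones or closer, so that the gene ends stood apart and not the intergenic regions.

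Which antibody gave the highest fold differed with position. At intergenic regions it was Millipore07-601 in 3883 (60.0%) and Abcam133638 in 2311 (35.7%), whereas at gene ends it was Millipore07-601 in 37.2% and Abcam133638 in 58.7%. The fold of Millipore07-601 over that of Abcam133638 at the same region had a median of 1.07 at intergenic regions (quartiles 0.926 and 1.23), 0.940 at gene ends (0.806 and 1.09), 1.08 inside genes and 1.12 at remote regions. From 1 to 2 kb outside a gene it was already 1.05, and from 25 to 50 kb it was 1.10. Intergenic regions divided by strength into 4 equal groups had 1.03, 1.04, 1.06 and 1.13 from weak to strong, and gene-end regions of the same strength 0.895, 0.922, 0.939 and 0.997, lower in each. The ratio of Abcam133737 over Abcam76013, for comparison, was 0.993 at intergenic regions and 1.01 at gene ends. The quartiles overlap between positions, and with 1 library per antibody the antibody and the library cannot be told apart.

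Base composition moved with this ratio. Over the 140 intergenic regions with a summit in a promoter window, the Spearman correlation between the GC content of the window and the ratio was -0.32, and over 3509 gene-end regions it was -0.20. Below 55% GC the median ratio was 1.06 for the intergenic and 0.952 for the gene-end regions, and at or above 55% it was 0.924 and 0.898. The part of GC content in the difference between positions was not tested.

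**Figure D2:**
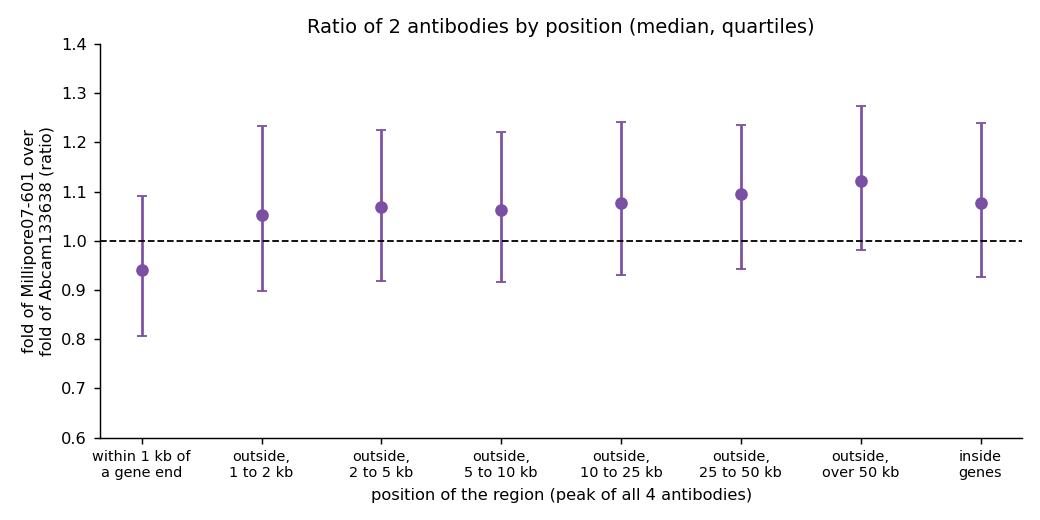
Ratio of the fold of Millipore07-601 to that of Abcam133638 at the same shared region (vertical axis), by position of the summit relative to protein-coding genes; points are medians, bars run from the lower to the upper quartile and the dashed line marks 1. The median is 0.940 within 1 kb of a gene end, between 1.05 and 1.10 in the 5 bins of intergenic regions, and 1.12 beyond 50 kb.

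Intergenic regions were most dense next to genes and about as strong far from them as close by. Distances to the nearest gene end had a median of 11.3 kb and quartiles of 4.54 and 24.0 kb. Because most intergenic sequence lies far from genes, counts were divided by the amount of sequence at each distance. The density was 19.5 regions per Mb from 1 to 2 kb, 13.8 from 2 to 5 kb, 11.7 from 5 to 10 kb, 9.48 from 10 to 25 kb and 7.89 from 25 to 50 kb, and 10.5 per Mb over the whole 619 Mb. Genes themselves, their ends included, held 17.8 shared regions per Mb. The median of the mean fold stayed between 7.13 and 7.29 in the 5 bins, while their quartiles spanned 5.48 to 10.9.

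**Figure D3:**
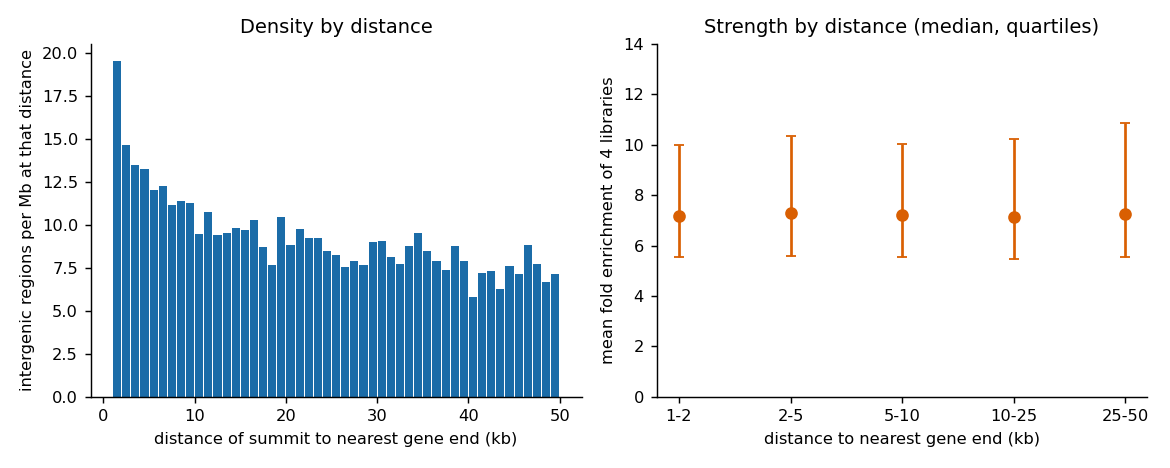
Left, number of intergenic regions per Mb of sequence (vertical axis) in 1-kb bins of distance from summit to nearest gene end (horizontal axis, kb); right, mean fold of the 4 libraries in 5 distance bins, as median (point) and quartiles (bar). The density falls from 19.5 per Mb at 1 to 2 kb, while the median fold lies between 7.13 and 7.29 in all 5 bins.

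Intergenic regions were somewhat denser on the start side of genes than on the end side. Strand was known for the nearest gene of 5058 of the 6470, and for 2906 of these (57.5%, interval 56.1 to 58.8) the nearer end was the start, which held 54.0% of the corresponding sequence. Densities were 11 per Mb on the start side and 9.57 on the end side. From 1 to 2 kb they were 21.5 and 16.7 per Mb, and from 5 to 10 kb 11 and 11.3, the one distance at which the end side was not lower. Between genes that point away from each other the density was 11.9 per Mb, between genes in tandem 9.85 and between genes that point towards each other 9.29. The median of the mean fold was 7.17 on the start side and 7.26 on the end side.

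Many intergenic regions had another close by. Of the 6470, 2915 (45.1%, interval 43.8 to 46.3) had another within 10 kb, with a median mean fold of 7.32 against 7.12 for the rest. This share was not computed for other shared regions or for random positions, so that it does not show more grouping than elsewhere. Of the 3522 stretches between genes that held any, 2056 held 1 and 196 held 5 or more, up to 14. They were nearest to 3862 of 21887 protein-coding genes, or 17.6%, and 2428 of these genes had 1 such region, 812 had 2, 622 had 3 or more and 121 had 5 or more. The count of genes was 2551 with peaks of a fold of at least 5, and 2191 where non-coding genes could be the nearest gene instead. For 3231 regions (49.9%) genes on both sides lay within 50 kb, so that the nearest gene is a label of position and not a known target.

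Hes1, a transcriptional repressor and effector of NOTCH signalling, had 14 intergenic regions, 1.19 to 46.2 kb away on both sides. The strongest (chromosome 16, 30090118 to 30090786, 22.5 kb away) had folds of 25.9 with Abcam133737, 31.1 with Millipore07-601, 19.7 with Abcam76013 and 28.8 with Abcam133638, and another at 25.4 kb on the other side had 21, 30.7, 23.7 and 27.6. The weakest had a mean fold of 4.49. Irf2bpl, a gene for a co-regulator that binds IRF2, also had 14 regions, with mean folds of 5.38 to 15.9, and its relative Irf2bp2 had 11, with 4.75 to 13.6. The strongest of either was below the strongest at Hes1.

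Lpcat1, whose enzyme makes the saturated phosphatidylcholine of surfactant, had 11 regions, all on the side of its start, 9.16 to 41.2 kb away. The nearest-gene rule left 49 kb of sequence on that side and 8.85 kb on the other, where a region could be assigned to it. The strongest (chromosome 13, 73453098 to 73454341) had folds of 26.8, 43.6, 30.7 and 32.8 in the order of antibodies above, and 2 others, 18.2 and 24.0 kb away, had mean folds of 22.7 and 22.8. The remaining 8 were at most 9.02, below all 3 of these. Kcnj15 had 9, a number that 8 genes shared, Cebpa and Foxa2 among them, and it stands for these as the one with the strongest region. All lay before its start, where 49 kb could hold them against 28.5 kb on the other side, with mean folds of 4.81 to 44.1, and 4 of them were among the strongest 10% of shared regions. Around each of these 5 genes, regions of unlike strength stood side by side.

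**Figure D4:**
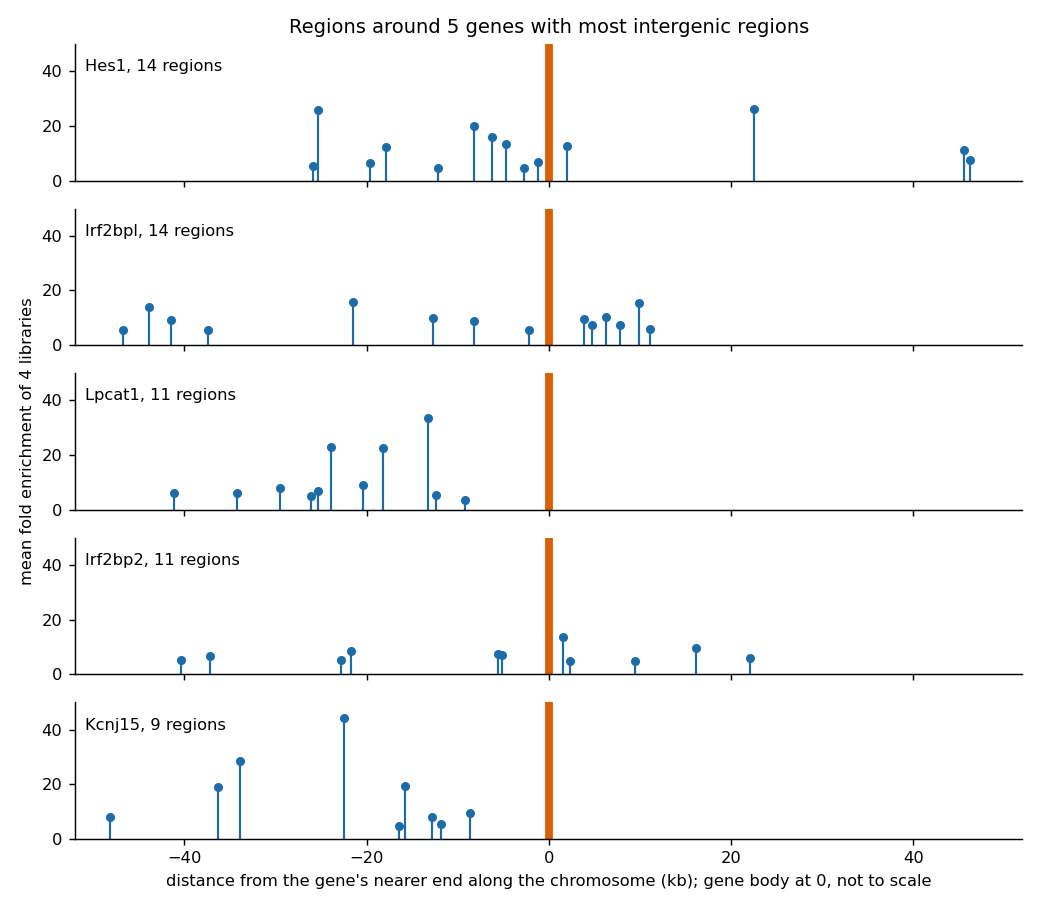
Mean fold of the 4 libraries (vertical axis) at the intergenic regions nearest to Hes1, Irf2bpl, Lpcat1, Irf2bp2 and Kcnj15, against distance from the gene's nearer end along the chromosome (horizontal axis, kb); the orange bar stands for the gene, not to scale. Hes1, Irf2bpl and Irf2bp2 have regions on both sides, and those of Lpcat1 and Kcnj15 lie on 1 side, the side with more room under the nearest-gene rule.

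Genes of the lung epithelium were nearest to an intergenic region more often than protein-coding genes at large (17.6%). Of 30 AT2 genes, 19 (63.3%) had at least 1, with 59 regions in all, 65.3 per Mb of the sequence 1 to 50 kb from these genes against 10.5 over all genes, and a median mean fold of 8.69 against 7.20. Of 30 AT1 genes, 17 (56.7%) had 42 regions, at 37.1 per Mb and a median of 10.2. Of 15 airway secretory genes, 9 (60.0%) had 16 regions at 46.2 per Mb and a median of 8.48, whereas 4 of 15 airway ciliated genes (26.7%) had 1 each, at 7.94 per Mb and a median of 6.29. The share of regions among the strongest 10% of shared regions was 30.5% for the AT2 list (18 regions), 25.0% for the endothelial list (3 regions), 21.4% for the AT1 list (9 regions) and 18.8% for the airway secretory list (3 regions), against 10.9% of all intergenic regions. It was 16.7% for the immune list (1 region), 16.1% for the TGF-beta and BMP list, 15.3% for the WNT, hedgehog and NOTCH list, 12.5% for the transcription factor list and 6% for the junction list, and between 0% and 10.7% for the other 10 lists. These are counts for lists chosen with earlier results of these data known, and no list was tested. Where non-coding genes could be the nearest gene instead, 9 AT1, 2 ciliated and 17 transcription factor genes had a region.

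Among AT2 genes, Sftpb had 5 intergenic regions, Scd1 5, Lpcat1 11 and Cebpa, a transcription factor gene of AT2 maturation, 9. The strongest at Cebpa (chromosome 7, 35113019 to 35113685, 5920 bp away) had folds of 22.4 with Abcam133737, 33.4 with Millipore07-601, 23.3 with Abcam76013 and 29.1 with Abcam133638. Etv5, a transcription factor that answers to FGF signalling, had 3, the strongest 1889 bp away with 28.6, 40.4, 28.4 and 32.8. Sftpc, the surfactant protein C gene, was nearest to none in the 1.23 kb of sequence that could hold one, and a region 1638 bp from its neighbour Lgi3 had a mean fold of 29.2. Each of these strongest regions was above the median of the intergenic regions in every library. Ank3, Lyz2 and Chil1 of the AT2 list were nearest to none, with 82.7, 20.2 and 15 kb of sequence that could hold one.

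Among AT1 genes the strongest region was that of Cldn18, a tight junction claudin (chromosome 9, 99684746 to 99686114, 5.30 kb away), with folds of 25.8, 35.1, 23.5 and 25.8 in the same order. Pxdc1 had one 20.9 kb from its start at 22.6, 34.5, 23.5 and 28.9. Hopx, a homeodomain-only protein used to mark AT1 cells, had 6 regions, the strongest 39.9 kb from its start (chromosome 5, 77154760 to 77155491) at 22.0, 33.6, 24.0 and 28.1. Vegfa, the growth factor by which AT1 cells act on capillaries, had 8, of which 5 lay together 43701 to 47354 bp away and the best had a mean fold of 13.4. Aqp5 and Pdpn, classical AT1 genes, had 1 each, with 3.06 and 49.1 kb of sequence that could hold one. Ager had 0 kb of such sequence, so that the rule could give it none. Cav1 and Cav2 (56.6 kb each), Gprc5a (29.6 kb) and Spock2 (24.3 kb) had such sequence but no intergenic region.

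Of the airway secretory genes, Scgb1a1, the club cell secretoglobin, had a region 2.14 kb away (chromosome 19, 9081046 to 9081747) with folds of 15.8, 22.4, 17.9 and 22.8. Ahnak, of the AT1 list, was 4.565 kb away on the other side of that region. Cyp2f2, a club cell cytochrome, had 5 regions with a best mean fold of 13.5. Neither Scgb1a1 nor Cyp2f2 had a shared region inside it or within 1 kb of its ends, and the same held for Muc5b, Hp, Aldh3a1 and Gabrp. It held for Igfbp2 and S100a6 of the AT1 list, for 0 of the 19 AT2 genes and for 1195 of all 3862 genes. Among genes with a region in lists of other tissues, it held for 6 of 7 endothelial, 2 of 2 immune, 4 of 7 neural and 3 of 7 mesenchymal genes. It held for 1 of 1 thyroid, 1 of 6 proliferation, 0 of 7 housekeeping and 0 of 1 gastrointestinal genes. In the ciliated list the best were Dnah9, a dynein heavy chain gene, at a mean fold of 12.2, and Ccdc113 at 6.34.

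Transcription factors of the lung epithelium made up the list with the highest share, 35 of 45 genes (77.8%), with 96 regions at 29.1 per Mb and a median mean fold of 7.31. These genes also had the most sequence of any list that could hold a region, 3.30 Mb. By density the list was below the housekeeping list (32.7 per Mb). Where non-coding genes could be nearest instead, 17 of the 45 had a region, against 15 of 30 in both the AT2 and junction lists. The transcription factor list then no longer had the highest share. The strongest lay 16.5 kb from Nr3c1, the glucocorticoid receptor gene (mean fold 32.6; folds 27.6, 38.3, 25.2 and 39.2), with Arhgap26 17.7 kb away on the other side. Irx2 had one 30.4 kb from its start (27.0, 36.3, 22.2 and 26.1), and Foxa2, a forkhead factor of endoderm, one 24.6 kb past its end (19.7, 32.0, 20.5 and 25.6) among 9 in all. Nkx2-1 itself had 7 intergenic regions, from 1771 to 44611 bp away. Its strongest, 2390 bp away (chromosome 12, 56529300 to 56529729), had 10.5, 14.6, 10.4 and 13.6, and the weakest a mean fold of 3.92, so that none of the 7 was among the strongest 10% of shared regions. Sox2 and Sox9, factors of the airway and of the distal tip of the growing lung, had 1 and 3, with best mean folds of 6.11 and 7.33 and no shared region inside the gene or within 1 kb.

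Genes of epithelial junctions and keratins followed, with 22 of 30 (73.3%; 12 with a fold of at least 5), 50 regions at 53.5 per Mb and a median mean fold of 6.42, which is lower than over all genes. The strongest lay near the neighbouring cadherin genes Cdh3 (3.02 kb away, 22.6, 31.1, 23.3 and 34.5) and Cdh1, which encodes E-cadherin (17.8 kb away, 17.0, 25.0, 15.9 and 21.3). Of 30 basement membrane and integrin genes, 11 (36.7%; 5 where non-coding genes could be nearest instead) had 23 regions at 21.5 per Mb and a median of 7.28. Lamc1, a laminin chain gene, had one of 32.4 mean fold at 34.4 kb, and Col4a1, a collagen IV chain gene, one of 21.5 at 25.0 kb.

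The signalling lists ranged from 38.5% to 60.5% of their genes. Of 38 WNT, hedgehog and NOTCH genes, 23 (60.5%) had 59 regions at 31.1 per Mb and a median mean fold of 7.13. The 23 became 14 where non-coding genes could be nearest instead, and 14 with a fold of at least 5. The ligand gene Wnt7b had 4, the strongest 30.2 kb away (chromosome 15, 85611486 to 85612313) with folds of 26.1 with Abcam133737, 27.7 with Millipore07-601, 21.1 with Abcam76013 and 30.2 with Abcam133638, and Shh, the hedgehog ligand gene of lung epithelium, had 3 with a best mean fold of 15.7. Of the receptor genes, Fzd7 had 3, with a best mean fold of 26.3, and Fzd5 3, with 14.8. Ctnnb1, which encodes beta-catenin, had 5 and the WNT target Axin2 4, with best mean folds of 9.68 and 9.54.

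Of 30 FGF and ERBB genes, 14 (46.7%; 8 with a fold of at least 5) had 28 regions at 16.1 per Mb and a median of 7.23. Those with the best mean folds were Dusp6, a phosphatase of ERK (22.5, at 25.9 kb), and Errfi1, an inhibitor of the EGF receptor (18.8, at 32.2 kb). Of 30 TGF-beta and BMP genes, 14 (46.7%) had 31 regions at 18.7 per Mb and a median of 6.84. The 14 became 4 where non-coding genes could be nearest instead. The ligand gene Bmp4 had 2, at 46.2 and 49.2 kb, with mean folds of 17.4 and 18.6, and the inhibitor gene Smad6 had 8, with a best of 16.2. The YAP and TEAD list joins genes of the Hippo pathway with targets of YAP. Of its 26 genes, 10 (38.5%) had 27 regions at 30.7 per Mb and a median of 7.50. Of these, Amotl2, an angiomotin gene, had 8, the strongest 2.14 kb from its start (mean fold 16.2), and Tead1 6, with a best of 7.91, whereas Wwtr1, the gene for TAZ, had 0.

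Lists of other cell types were closer to the share over all genes. Of 25 endothelial genes, 7 (28.0%) had 12 regions at 11 per Mb and a median of 6.95, and of 27 mesenchymal genes, 7 (25.9%) had 10 at 6.95 per Mb and a median of 6.74. Where non-coding genes could be nearest instead, these became 3 endothelial and 2 mesenchymal genes. The strongest endothelial entry was Erg, a transcription factor gene of endothelium, with folds of 29.2, 40, 28.6 and 35.6 at a region 26.8 kb past its end, and the gene on the other side of that region, 32.1 kb away, was Kcnj15, described above. Myocd, a smooth muscle co-activator gene, had a region of 18.8 mean fold 3.32 kb away, with Arhgap44 at 7.32 kb on the other side, and Twist2 had one of 10.6. Car4, a carbonic anhydrase gene of lung capillaries, had a mean fold of 16.2 at 4.98 kb.

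Of 28 immune genes, 2 (7.14%) had 6 regions at 8.41 per Mb, Ptprc, the CD45 gene, with a best mean fold of 15.8, and Klrb1c with 8.60. Of 25 gastrointestinal genes 1 (4.00%) had 1, Gkn3 at 5.96, or 1.55 per Mb. Of 12 thyroid genes, a tissue in which NKX2-1 is also made, 1 (8.33%) had 3 at 8.99 per Mb, Iyd, with a best of 7.04. Of 26 neural genes, 7 (26.9%) had 10 at 9.44 per Mb, with Syt1 at 15.5 and Map2 at 13.8. Of 25 housekeeping genes, 7 (28.0%) had 14 at 32.7 per Mb, with Tfrc, the transferrin receptor gene, at 16.4 and Actb at 11.7, and of 25 proliferation genes, 6 (24.0%) had 10 at 20.0 per Mb, with Mcm3 at 12.3 and Bub1b at 11.2. Where non-coding genes could be nearest instead, 3 neural, 2 proliferation, 1 immune and 0 thyroid genes were left. The small counts moved with 1 library, since without Abcam133737 they were 4 immune and 2 gastrointestinal genes, and without Abcam76013 4 immune and 2 thyroid genes. The density of the housekeeping list was thus as high as that of some epithelial lists, over a short 0.428 Mb of sequence, while its share of genes and its median mean fold of 6.10 were lower.

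**Figure D5:**
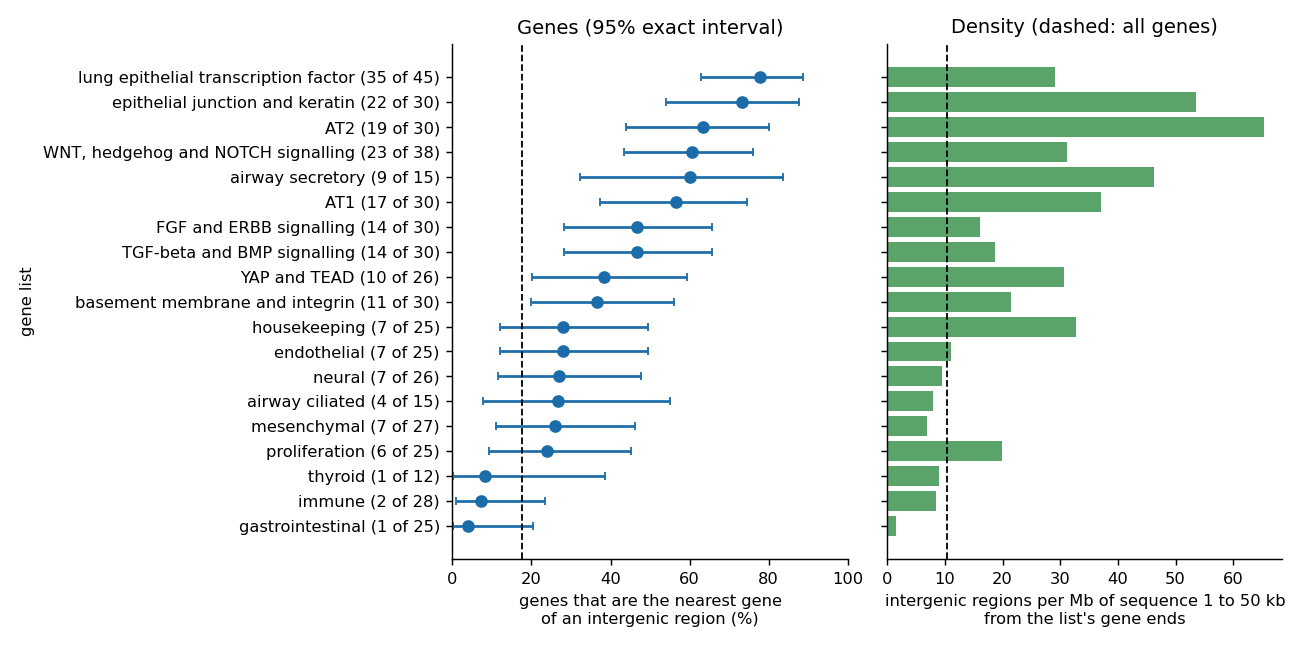
Left, share of the genes of each of 19 lists that are the nearest gene of at least 1 intergenic region (horizontal axis, %; bars are exact 95% intervals, counts in the labels); right, intergenic regions per Mb of sequence 1 to 50 kb from the list's genes. Dashed lines mark all protein-coding genes, 17.6% and 10.5 per Mb. The transcription factor list is highest on the left (77.8%) and the AT2 list on the right (65.3 per Mb).

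Non-coding genes within these stretches included microRNAs of epithelium and growth control. Of 1005 miRNA hairpins in the RefSeq table, 86 (8.56%) lay within 10 kb of the summit of an intergenic region, and of the 346 outside coding genes, 66 (19.1%) did. The same share was not computed for intergenic positions at large, where the density was 10.5 regions per Mb. These counts therefore show no excess near hairpins. The hairpins named here and below were picked from the 86 with their values in view. The median of the mean fold of the nearest region, taken over hairpins, was 6.64. Hairpins of a cluster can share their nearest region, so that the 86 hairpins stand for fewer regions. Both clusters of the miR-200 family, which keeps cells epithelial by repressing Zeb1 and Zeb2, were among the 86 and are shown for that reason, chosen after their values were seen. Their mature 3p sequences fall into groups by seed (bases 2 to 8, in capitals), AAUACUG in the first 3 lines and AACACUG in the last 2.

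miR-200b-3p: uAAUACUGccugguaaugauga
miR-200c-3p: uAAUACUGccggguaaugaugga
miR-429-3p: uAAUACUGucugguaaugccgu
miR-200a-3p: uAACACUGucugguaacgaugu
miR-141-3p: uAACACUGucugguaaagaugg

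The region nearest to Mir200c and Mir141 (chromosome 6, 124718734 to 124719319) had its summit 547 bp from Mir200c and 952 bp from Mir141, with folds of 7.26 with Abcam133737, 5.29 with Millipore07-601, 4.32 with Abcam76013 and 9.61 with Abcam133638. That nearest to Mir200b, Mir200a and Mir429 (chromosome 4, 156059243 to 156060105) lay 4.13 kb from Mir200b, with 5.76, 8.25, 5.48 and 8.62. Both were near the middle of the intergenic regions by mean fold, at 6.62 and 7.03. At the Mir200c region the libraries differed. Millipore07-601 and Abcam76013 were below their lower quartiles (6.35 and 4.67), whereas Abcam133737 and Abcam133638 were above their medians (5.97 and 8.19). The Gpc5 region just inside the upper limit of distance lay 1389 bp from Mir17, the first hairpin of the miR-17 to miR-92 cluster of growth control, with a mean fold of 5.36. Others lay 454 bp from Mir31 (mean fold 7.98), 602 bp from Mir22 (6.27), 725 bp from Mir203, a keratinocyte miRNA (3.50), and 1791 bp from Mir34a, a target of p53 (7.24).

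The longest intergenic region, 2274 bp, had its summit 1.04 kb from the start of Jun, an AP-1 gene (chromosome 4, 95051375 to 95053648), with folds of 11.7 with Abcam133737, 12.9 with Millipore07-601, 8.53 with Abcam76013 and 16.4 with Abcam133638. One of 1860 bp lay 5.22 kb from Klf9, a gene for a factor induced by glucocorticoids, with 7.08, 12.3, 7.31 and 10.1. Between them in length, one of 1990 bp at 3.36 kb from Sfi1 had folds of only 4.56 to 4.97 on pileups of 122 to 124 tags. Its local background, derived from pileup and fold, was 23.8 to 26.2 tags, against 3.64 to 3.93 tags at the region of Jun. The Sfi1 region thus differed from both others in its background and had nearly the same pileup in all 4 libraries.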

How the data were processed

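Peak lists of 4 ChIP-seq libraries (depths above) were used. Peak calling by the authors used MACS 2.1.2, 1 antibody at a time against the same input, per the file headers. The build was mm10 per the submitters' processing notes, which also name FastQC, Trimmomatic, Bowtie, SAMtools and deepTools, with versions not given in the sources used here. Per the file headers, each deposited peak has a pileup signal in tags, a fold enrichment (a ratio over local background) and p- and q-values as −log10.

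Merging, positions, distances and counts were computed with Python 3.11.15, pandas 2.3.3, numpy 2.4.6 and scipy 1.17.1, and the code was checked on simulated peaks with known answers. Genes were 21887 protein-coding genes of RefSeq GRCm38.p6 (mm10 has the same coordinates). Strand was matched for 17492 of them through the promoter table. Density divides counts by the intergenic sequence at that distance from its nearer gene. The gene table gives no exons, and a search of sequence at every summit was not run. The 19 lists hold 512 genes, all matched. The regions and lists were chosen with earlier results of these data known.

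Genes and regions were named by rule: the 10 strongest regions, the strongest 2 of each list (3 for the AT1, AT2 and transcription factor lists), the 5 genes with most regions (ties by the strongest region), the 3 longest regions and those at the distance limits. Any further gene was named with its values in view. Alternatives tried were stricter q or fold, 50% reciprocal overlap, another summit, other windows, non-coding genes, both flanking genes, other spacing and leaving out each antibody.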

Additional observations from a re-analysis of the deposited data

How the results depend on the processing

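No paired analysis was possible because each antibody has 1 library and no result comes from a test. Of 80 alternative values for the main counts, shares and medians, 57 stayed within 1.5 times the count or inside the interval of the share or median. With a fold of at least 5 there were 3666 intergenic regions, 2551 nearest genes, a median mean fold of 9.71 and 32.1% within 10 kb of another, with weaker peaks left out by construction. A −log10 q of at least 5 gave a median mean fold of 7.86 and 40.4% within 10 kb. A reciprocal overlap of 50% gave 43.7% within 10 kb. Non-coding genes as limits gave a median distance of 8.17 kb, 2191 nearest coding genes and 39.9% within 10 kb. A window from 2 kb gave 18.5% of shared regions and a median distance of 13.2 kb, and one up to 25 kb gave 15.6%, 7.60 kb and 43.0% within 10 kb. Spacings of 5 and 20 kb gave 33.6% and 57.2%. Leaving out each antibody gave 6594 to 7447 regions, 20.5% to 20.7% of shared regions, median distances of 11.2 to 11.3 kb, median mean folds of 6.67 to 7.05, 10.7% to 11% among the strongest, 3902 to 4265 nearest genes and 45.6% to 48.2% within 10 kb. Of 209 gene-list counts under 11 alternatives, 186 stayed within 1.5 times. Of the 23 that did not, those beyond the values beside the lists were small lists: ciliated genes were 1 with a fold of at least 5, mesenchymal genes 3 with a fold of at least 5, and immune and neural genes 1 and 3 with a window up to 25 kb. Chosen after seeing the data, pileup divided by filtered tags gave a Millipore07-601 to Abcam133638 ratio of 1.13 at intergenic regions and 0.983 at gene ends, and peaks with a fold of at least 5 gave 1.10 at intergenic regions. The pileup steps of whole tags limit the precision of weak regions.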

Other observations

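Chromosome X had few shared regions of any kind, 374, and 89 of them (23.8%) were intergenic, against 16.6% to 23.3% on the autosomes. Its density was 1.96 intergenic regions per Mb of sequence in the window, against 7.76 to 17.8 per Mb on the autosomes, where chromosome 7 was lowest and chromosome 11 highest. The median mean fold of its intergenic regions was 7.92, and the median fold of the autosomes ran from 6.81 to 7.70. Chromosome Y had 1. The labels used here do not give the sex of the animals.

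The local background was derived from the pileup and the fold, taking the fold as a ratio with 1 tag added to both pileup and background. In each library the background of 59.4% to 60.2% of the intergenic regions was 1 constant value, 3.64 to 3.93 tags. The fold there depends on the pileup alone. At 54 regions (0.835%) the background was at least 10 tags in every library, and their median mean fold was 3.66, against 7.23 for the rest. Inside long non-coding RNA genes the 1232 intergenic regions had a median mean fold of 7.13, and the other 5238 had 7.22.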
